A study of Mus musculus with 24 samples.

Results

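Cartilage collagens and their companion matrix proteins were followed in the mouse cochlea through 9 genes: Col2a1, Col9a1, Col9a2, Col9a3, Col10a1, Col11a1, Col11a2, Acan and Matn1. They were chosen by name, and every probe set annotated with 1 gene symbol that is one of these was taken. The rule uses gene symbols only. This gave 13 probe sets of the 45101 on the array, and 9 of the 18194 genes that have such a probe set. The Affymetrix mouse genome array used here reads each transcript with sets of short probes, and its values are log2 signals.

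Total RNA of whole cochleae was hybridized to 24 arrays, 3 for wild type and 3 for α9-/- mice at each of P3, P7, P13 and P60, postnatal days from before the onset of hearing to maturity. Both genotypes came from 129S6 x CBA/CaJ stock crossed back to CBA/CaJ. The α9-/- mice lack Chrna9 in every tissue from conception, the gene of the nicotinic receptor subunit through which efferent fibers act on hair cells. Each array holds 1 pool of cochleae, for which the design text gives 3 to 5 mice, while the methods count cochleae and give fewer of them per pool at P13 and P60 than at P3 and P7. The labels do not say what pools of the same number (1 to 3) share, and 3 arrays per group limit the precision. Because a pool is a whole organ, fewer cells of a type and less RNA per cell cannot be told apart. The 3 probe sets of Chrna9 gave low signal on all arrays of both genotypes, between 3.24 and 6.33, so they do not check the labels.

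Collagen II forms the main fibrils of cartilage, collagen XI (Col11a1, Col11a2) sits within them and limits their width, and collagen IX (Col9a1, Col9a2, Col9a3) decorates their surface. Aggrecan (Acan) is the large proteoglycan that holds water between the fibrils, and matrilin-1 (Matn1) links fibrils and aggrecan. Collagen X (Col10a1) is the collagen of hypertrophic chondrocytes, the cells that precede bone when cartilage ossifies. The otic capsule around the cochlea begins as cartilage and turns to bone, while collagens II, IX and XI are also laid down in the tectorial membrane. Mutations of several of these genes cause hearing loss.

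On GRCm38.p6 Col2a1 lies at chr15:97975602-98004724, Col9a1 at chr1:24177589-24252738, Col9a2 at chr4:121039566-121055325 and Col9a3 at chr2:180598102-180622192. Col10a1 lies at chr10:34389981-34397085, Col11a1 at chr3:114030479-114220756 and Col11a2 at chr17:34038919-34066684. Acan lies at chr7:79053226-79115099 and Matn1 at chr4:130944385-130955476.

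RefSeq promoter windows of 300 bases around the transcript start were found for 7 of the genes, with 2 starts for Col9a1 (chr1:24177360-24177659 and chr1:24194953-24195252). The 4 printed here were chosen from the members that fell between P7 and P13 in wild type. Col10a1 and Matn1 had the largest falls in that step. Col9a2 was the member that passed in it in both genotypes, and Col11a2 the member that was higher in α9-/- at P13. All lie on the plus strand, Col10a1 at chr10:34389731-34390030, Matn1 at chr4:130944135-130944434, Col9a2 at chr4:121039316-121039615 and Col11a2 at chr17:34038888-34039187. Capitals mark matches on either strand to the SOX, RUNX, GC box and TATA box motifs spelled out after the sequences.
Col10a1: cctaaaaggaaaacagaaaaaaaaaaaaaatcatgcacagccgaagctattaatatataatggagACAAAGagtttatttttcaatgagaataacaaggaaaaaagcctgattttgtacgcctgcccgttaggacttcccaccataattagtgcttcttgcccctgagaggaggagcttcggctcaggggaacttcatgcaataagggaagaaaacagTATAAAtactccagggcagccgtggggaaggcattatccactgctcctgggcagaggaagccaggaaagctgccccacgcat
Matn1: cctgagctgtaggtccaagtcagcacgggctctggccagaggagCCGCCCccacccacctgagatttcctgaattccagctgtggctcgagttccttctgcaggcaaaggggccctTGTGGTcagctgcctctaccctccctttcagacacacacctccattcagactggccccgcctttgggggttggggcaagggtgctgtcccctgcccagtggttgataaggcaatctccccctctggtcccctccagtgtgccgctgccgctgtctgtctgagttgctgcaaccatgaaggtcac
Col9a2: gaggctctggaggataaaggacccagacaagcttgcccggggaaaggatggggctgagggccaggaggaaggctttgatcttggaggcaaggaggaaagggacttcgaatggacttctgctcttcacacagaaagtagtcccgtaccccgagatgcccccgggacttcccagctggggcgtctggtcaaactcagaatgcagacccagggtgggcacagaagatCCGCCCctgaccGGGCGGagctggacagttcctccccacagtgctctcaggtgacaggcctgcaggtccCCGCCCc
Col11a2: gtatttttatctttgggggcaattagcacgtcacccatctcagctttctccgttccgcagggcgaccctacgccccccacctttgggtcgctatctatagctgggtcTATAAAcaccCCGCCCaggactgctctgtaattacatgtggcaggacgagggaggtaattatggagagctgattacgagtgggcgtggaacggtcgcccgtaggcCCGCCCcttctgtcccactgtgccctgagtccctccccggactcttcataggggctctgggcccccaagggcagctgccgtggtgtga
The GC box searched was GGGCGG, found in 35.7% of all 32851 RefSeq windows of this length and in 5 of the 8 windows of members. The TATA box was TATAAA, with 13.6% of all windows and 2 of 8. The RUNX core was TGTGGT, with 16.8% and 1 of 8. Of the SOX cores AACAAT was in 10.7% and in 0 of 8, and ACAAAG was in 18.7% and in 1 of 8. Relative to the start, Col10a1 has the TATA box at -32 and a SOX core at -185, and Matn1 has the RUNX core at -134 and a GC box at -206. Col9a2 has GC boxes at -26, -14 and 43, and Col11a2 has GC boxes at -133 and -38 and a TATA box at -143. For Col11a2 the transcript start of this window lies inside the gene interval given above, and so do its matches. All matches describe letters only, and none of the motifs overlaps another in the windows shown.

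Several arrays stand apart before any result. The Gapdh control probe sets read the 3′ and 5′ ends of 1 transcript, and their log2 difference was above 4 on 5 arrays: P3 wild type pool 1 (7.69), P3 α9-/- pool 2 (6.85), P13 wild type pools 1 (6.30) and 2 (6.47), and P60 wild type pool 1 (6.47). P13 wild type pool 3 had 2.43, and all other arrays had 1.27 or less. For the 3 wild type arrays at P13 the mean was 5.07 ± 2.29 (SD) and for the 3 α9-/- arrays 0.01 ± 0.28 (SD), with an exact two-sided permutation p of 0.1, the smallest that 3 against 3 allows. The mean log2 signal of the 3′ probe sets of the added poly-A control transcripts was under a limit of 8 on some arrays. Among them were pools 1 and 3 of both genotypes at P7 and pools 2 and 3 of both at P13. At these ages the side of the limit followed the pool number. At P7 wild type pool 1 (7.13) and α9-/- pool 3 (7.14) lay nearer to pool 2 (8.71 and 9.13) than wild type pool 3 (5.35) and α9-/- pool 1 (5.45) did. The cochlear fibrocyte gene Otos was between 8.88 and 14.43 and the hair cell myosin Myo7a between 6.99 and 8.69, whereas Slc26a5, the motor protein of outer hair cells, did not exceed 5.45 on any array.

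Levels within an age are given on the scale of the deposited values. Array quantiles are alike within an age and differ between ages, so values set across ages are on a common scale, after quantile normalization over all 24 arrays. A gene with several probe sets is represented by the one with the highest mean signal. A difference passed at a Benjamini-Hochberg adjusted p under 0.05 in limma, over all 45101 probe sets for ages and over the 18041 most variable ones for genotypes. Of the 13 member probe sets 12 were among these 18041, and the other, the dimmest of 3 for Col9a3, lay between 2.69 and 3.77 on every array.

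**Figure D1:**
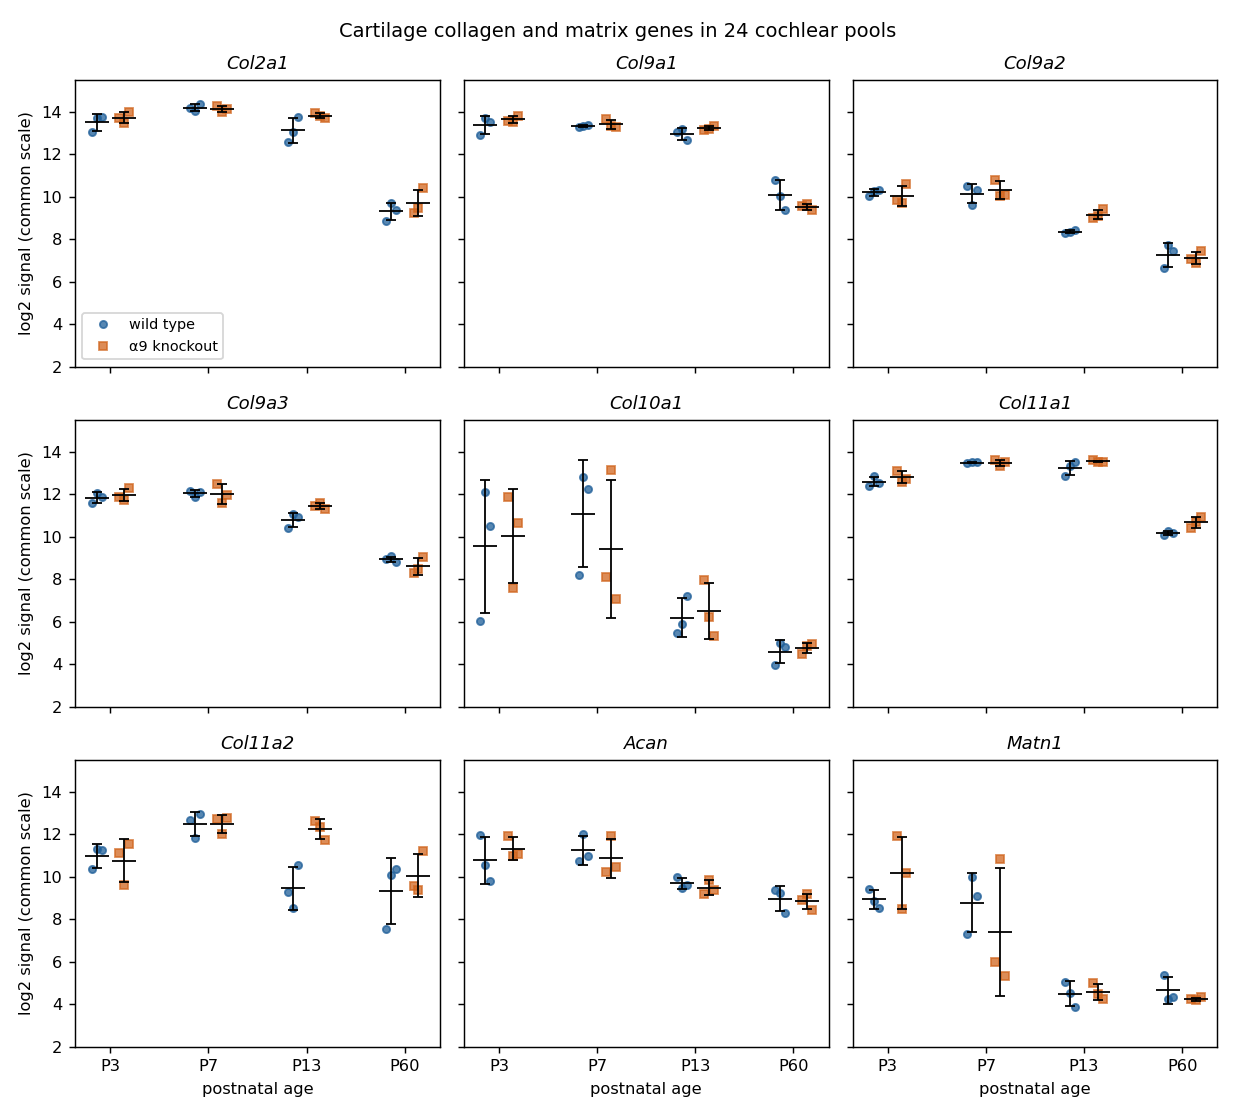
Log2 signal on the common scale (vertical axis) of the 9 genes at 4 postnatal ages (horizontal axis), wild type as circles and α9-/- as squares, 1 point per pool, with black bars at the mean ± SD of 3 pools. Col2a1, Col9a1 and Col11a1 are at 12.40 or above on every array through P13 and at 10.94 or below at P60, whereas Col10a1 and Matn1 spread widely at P3 and P7. Matn1 is low from P13, while Col10a1 has means of 6.20 in wild type and 6.50 in α9-/- at P13 and is low at P60.

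Between P3 and P60 the members fell in both genotypes. In wild type 8 of 9 genes passed as lower and 0 as higher, where 6.11% of all probe sets were lower. In α9-/- 8 of 9 were lower, against 8.01% of all probe sets. The median log2 difference over the 9 genes was -2.94 in wild type and -3.35 in α9-/-, while over all probe sets it was -0.04 and -0.06. The gene that did not pass was Col11a2, with -1.65 ± 0.68 (SE, adjusted p = 0.12) in wild type and -0.71 ± 0.68 (SE, adjusted p = 0.557) in α9-/-. Without the arrays of high Gapdh difference 7 of 9 passed in wild type and 8 in α9-/-, the wild type call of Acan being lost.

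Col2a1, the chain of collagen II, was high on every array until P13. On the common scale its wild type pools were at 13.04, 13.70 and 13.74 at P3 and at 14.18, 14.02 and 14.35 at P7. They stood at 12.57, 13.02 and 13.75 on day P13, then at 8.87, 9.69 and 9.37 on day P60. In α9-/- the P13 pools were at 13.94, 13.82 and 13.69 and the P60 pools at 9.25, 9.45 and 10.41. Every P60 pool of either genotype lay below every earlier pool. Between P13 and P60 Col2a1 fell by 3.80 ± 0.31 (SE, adjusted p = 2.68e-07) in wild type and fell by 4.11 ± 0.31 (SE, adjusted p = 1.57e-07) in α9-/-. Its difference from P3 to P7 did not pass, with 0.69 ± 0.31 (SE, adjusted p = 0.395) in wild type and 0.41 ± 0.31 (SE, adjusted p = 0.664) in α9-/-.

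Col11a1, a chain of collagen XI, rose early in wild type. Its wild type pools were at 12.40, 12.84 and 12.53 at P3 and at 13.46, 13.50 and 13.50 at P7, with no overlap. It rose by 0.90 ± 0.19 (SE, adjusted p = 0.021) and was the 1 of 9 members to pass as higher in this step, where 0.492% of all probe sets did. Its second probe set had 0.51 ± 0.28 (SE, adjusted p = 0.53). The call at the first probe set held in 7 of 13 alternatives. It was lost, among others, without P3 wild type pool 1 (adjusted p = 0.0734) or 3 (0.0988), and without P7 wild type pool 1 (0.0551), 2 (0.0989) or 3 (0.0936). In α9-/- Col11a1 had 0.68 ± 0.19 (SE, adjusted p = 0.0827). There 0 of 9 members passed in limma, where 1.21% of all probe sets passed up or down. At an unadjusted p under 0.05 there were 3 of 9 members (Col11a1, Col11a2 and Matn1), against 11.8% of all probe sets.

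Between P7 and P13, across the onset of hearing, 7 of 9 members fell in wild type, against 5.55% of all probe sets. The median of the 9 was -1.56 beside 0.04 over all probe sets. Col10a1, of hypertrophic chondrocytes, fell by 4.89 ± 1.54 (SE, adjusted p = 0.0398), from 8.18, 12.82 and 12.27 to 5.49, 5.87 and 7.23. Matn1 fell by 4.29 ± 1.01 (SE, adjusted p = 0.00874), from 7.29, 9.97 and 9.10 to 5.07, 4.53 and 3.89. For both genes all P13 pools lay below all P7 pools. On the deposited scale the wild type mean of Matn1 at P13 was at percentile 18 of all probe sets and that of Col10a1 at percentile 45.

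Col11a2, the other chain of collagen XI, fell by 3.03 ± 0.68 (SE, adjusted p = 0.00609) in wild type, from 12.66, 11.83 and 12.95 to 9.28, 8.54 and 10.53. Col9a2 fell by 1.79 ± 0.29 (SE, adjusted p = 0.000483) and Col9a3 fell by 1.25 ± 0.24 (SE, adjusted p = 0.00211), both chains of collagen IX. The second bright probe set of Col9a3 had -0.40 ± 0.32 (SE, adjusted p = 0.437). Aggrecan fell by 1.56 ± 0.50 (SE, adjusted p = 0.042) and Col2a1 fell by 1.07 ± 0.31 (SE, adjusted p = 0.0254). Col9a1, with -0.37 ± 0.26 (SE, adjusted p = 0.383), and Col11a1, with -0.24 ± 0.19 (SE, adjusted p = 0.42), did not pass, whereas the second Col9a1 probe set fell by 2.54 ± 0.74 (SE, adjusted p = 0.0287). Without the arrays of high Gapdh difference, which leaves pool 3 alone for wild type at P13 and takes its spread from the other groups, 1 member passed, Col9a2. In that smaller fit Matn1 had -4.89 with an adjusted p of 0.0724, Col10a1 -3.86 with an adjusted p of 0.271 and Col11a2 -1.95 with an adjusted p of 0.076. Without P7 wild type pool 3, P13 wild type pool 1 or P13 wild type pool 2 the count was 4, each time Col9a2, Col9a3, Col11a2 and Matn1. The call of Acan held in 5 of 13 alternatives, and was lost, among others, without P7 wild type pool 2 (adjusted p = 0.17) or 3 (0.0774), without P13 wild type pool 1 (0.0689), 2 (0.135) or 3 (0.0797), and on the deposited scale (0.0737). The call of Col10a1 was lost without P7 wild type pool 2 (0.143) or 3 (0.145) and without P13 wild type pool 1 (0.118) or 2 (0.116). That of Col2a1 held in 7 of 13 alternatives, and was lost, among others, without P7 wild type pool 1 (0.0601) or 3 (0.0954) and without P13 wild type pool 1 (0.131) or 2 (0.0872).

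In α9-/- the same step gave 1 of 9 members as lower, against 0.911% of all probe sets. This was Col9a2, which fell by 1.15 ± 0.29 (SE, adjusted p = 0.0362), from 10.79, 10.04 and 10.08 to 8.997, 9.08 and 9.40. The call did not hold when any 1 of the 6 pools was left out, with adjusted p between 0.0594 and 0.187. Col10a1 had -2.93 ± 1.54 (SE, adjusted p = 0.421) and Matn1 -2.82 ± 1.01 (SE, adjusted p = 0.172). Whether the step differed between genotypes was tested as an interaction, which passed for 0 of 9 members in limma and for 0.00222% of all probe sets. At the probe sets of highest mean all 9 estimates were positive, with a median of 0.67 beside -0.11 over all probe sets. The second Col11a1 probe set had -0.03, the second Col9a1 one 1.70 and the others of Col9a3 0.06 and -0.40. All these estimates share the wild type arrays of P13. At an unadjusted p under 0.05 there was 1 of 9 members, against 8.89% of all probe sets. This was Col11a2, at 2.77 ± 0.96 (SE, adjusted p = 0.492). For the step from P3 to P7 the interaction passed for 0 of 9 members and 0% of all probe sets in limma. At an unadjusted p under 0.05 there were 0 members, against 1.37% of all probe sets. For that from P13 to P60 it passed for 0 of 9 and 0% in limma. At an unadjusted p under 0.05 there were 4 members (Col9a1, Col9a2, Col9a3 and Col11a2), against 4% of all probe sets. These estimates too share the wild type arrays of P13.

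**Figure D2:**
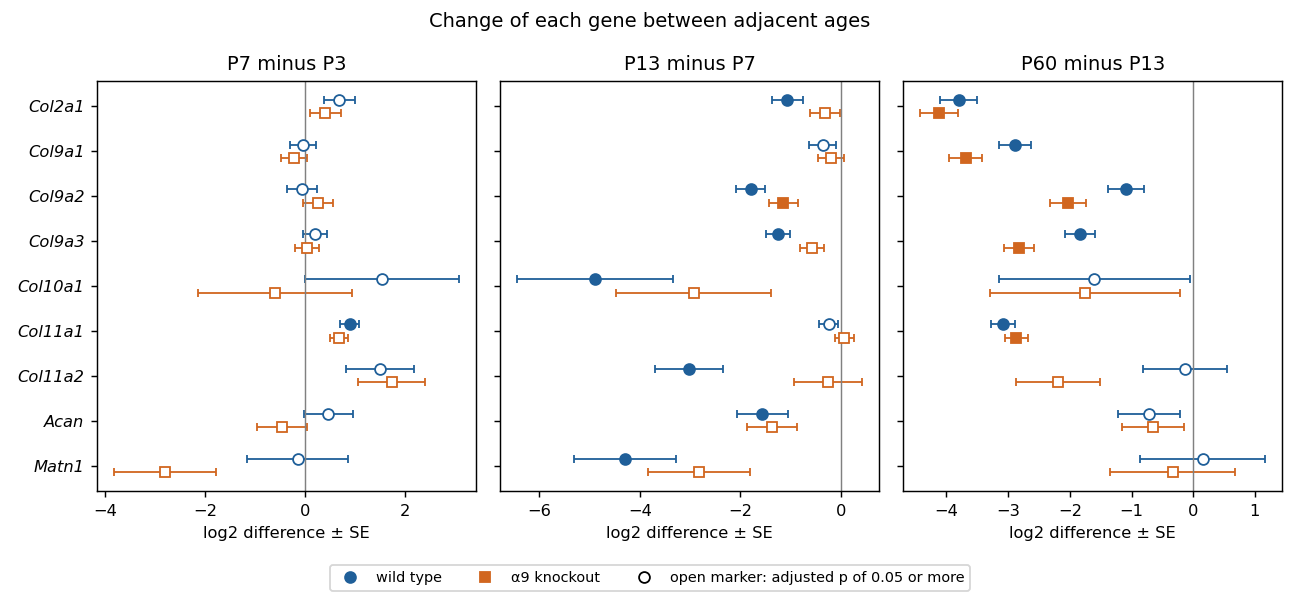
Log2 difference between adjacent ages on the common scale (horizontal axis, ± SE of the fit) for each gene (vertical axis), wild type as circles and α9-/- as squares, filled where the adjusted p was under 0.05. In the step from P13 to P60 Col2a1, Col9a1, Col9a2, Col9a3 and Col11a1 are filled in both genotypes, and in the step from P7 to P13 7 genes are filled in wild type and 1 in α9-/-.

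From P13 to P60 the fibril collagens fell in both genotypes. In wild type 5 of 9 members were lower, against 6.97% of all probe sets, and in α9-/- 5 of 9, against 3.58%. In each genotype these were Col2a1, Col9a1, Col9a2, Col9a3 and Col11a1. Col9a1 fell by 2.89 ± 0.26 (SE, adjusted p = 9.85e-07) in wild type and fell by 3.69 ± 0.26 (SE, adjusted p = 9.5e-08) in α9-/-. Its wild type pools went from 13.05, 13.19 and 12.64 to 10.79, 10.05 and 9.39, without overlap. Col11a1 fell by 3.08 ± 0.19 (SE, adjusted p = 1.05e-08) in wild type and fell by 2.87 ± 0.19 (SE, adjusted p = 4.76e-08) in α9-/-, from 12.88, 13.32 and 13.53 to 10.07, 10.25 and 10.15 in wild type. Col9a3 fell by 1.84 ± 0.24 (SE, adjusted p = 5.18e-05) in wild type and fell by 2.82 ± 0.24 (SE, adjusted p = 1.58e-06) in α9-/-, and its second probe set had -1.67 and -2.54.

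Col9a2 fell by 1.09 ± 0.29 (SE, adjusted p = 0.0192) in wild type and fell by 2.04 ± 0.29 (SE, adjusted p = 0.000217) in α9-/-. The wild type call of Col9a2 held in 7 of 13 alternatives. It was lost, among others, without P13 wild type pool 1 (adjusted p = 0.0508), 2 (0.0518) or 3 (0.0512), without P60 wild type pool 1 (0.0644) and without the arrays of high Gapdh difference (0.22). Read at the probe set of highest mean, Col2a1, Col9a1, Col9a3 and Col11a1 passed in both genotypes under the other alternatives run. The second Col9a1 probe set, which varied more, had -1.92 ± 0.74 (SE, adjusted p = 0.0988) in wild type and -3.89 ± 0.74 (SE, adjusted p = 0.00251) in α9-/-. Col10a1, Acan and Matn1 did not pass in either genotype, with log2 differences between -1.75 and 0.15. Col11a2 had -0.13 ± 0.68 (SE, adjusted p = 0.925) in wild type and -2.19 ± 0.68 (SE, adjusted p = 0.0549) in α9-/-, and passed in α9-/- under 7 of the 8 alternatives run that left out no single pool.

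Over the whole interval Acan fell by 1.81 ± 0.50 (SE, adjusted p = 0.0182) in wild type and fell by 2.48 ± 0.50 (SE, adjusted p = 0.00188) in α9-/-. Its wild type pools were at 11.97, 10.54 and 9.81 at P3 and at 9.38, 9.22 and 8.30 at P60, and those of α9-/- at 11.93, 10.98 and 11.05 and at 8.89, 9.18 and 8.45, with no overlap between the ages. The wild type call held in 9 of 13 alternatives. Cases in which it was lost included leaving out P3 wild type pool 1 (adjusted p = 0.101), the highest of its group and one of high Gapdh difference, or P60 wild type pool 3 (0.0897). Matn1 fell by 4.28 ± 1.01 (SE, adjusted p = 0.00649) in wild type and fell by 5.94 ± 1.01 (SE, adjusted p = 0.000443) in α9-/-, and Col10a1 fell by 4.95 ± 1.54 (SE, adjusted p = 0.0368) in wild type and fell by 5.28 ± 1.54 (SE, adjusted p = 0.0258) in α9-/-. Both calls of Matn1 held under every alternative run. The wild type call of Col10a1 held in 7 of 13 alternatives. Cases in which it was lost included leaving out P3 wild type pool 2 (adjusted p = 0.194) or 3 (0.129) or any 1 P60 wild type pool (0.0969, 0.0645 and 0.0719). Its α9-/- call was lost in 5 of the 6 cases in which 1 pool was left out (adjusted p = 0.117 without P3 pool 1, adjusted p = 0.0733 without P3 pool 3, adjusted p = 0.0793 without P60 pool 1, adjusted p = 0.0647 without P60 pool 2, adjusted p = 0.0544 without P60 pool 3).

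Pools of 1 group lay far apart for Col10a1 and Matn1. The within-group SD was 2.09 for Col10a1 and 1.37 for Matn1, at percentiles 99.9 and 99.2 of all probe sets, whose median was 0.35. It was 0.91 for Col11a2 (percentile 96.4), 0.65 for Acan (89.9) and 0.21 for Col11a1 (10.9). At P3 the deposited signal of Col10a1 was 5.91, 12.02 and 10.38 in wild type and 11.76, 7.48 and 10.52 in α9-/-, the lowest pool of each being the one with a high Gapdh difference. At P7, where no array has a high Gapdh difference, it was 8.22, 12.88 and 12.28 in wild type and 8.13, 13.23 and 7.04 in α9-/-.

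At P7 pool 2 of each genotype was the highest for Col10a1, Matn1 and Acan. Matn1 stood at 7.29, 9.87 and 9.09 in wild type and at 5.93, 10.78 and 5.32 in α9-/-. Acan stood at 10.80, 12.01 and 10.92 and at 10.25, 11.90 and 10.42. Against the mean of pools 1 and 3, pool 2 was higher by 5.64 for Col10a1, 5.16 for Matn1 and 1.57 for Acan in α9-/-, and by 2.63, 1.68 and 1.15 in wild type. For Col2a1 this difference was -0.28 in wild type and -0.28 in α9-/-, and for Col11a2 -1.09 and -0.84. Pool 2 is also the only pool of each genotype with a mean poly-A control signal above 8 at P7. The part of this in these values was not tested. Pool 2 was singled out after these values were seen, and over all members 4 of 9 in wild type and 3 of 9 in α9-/- were higher in it, with medians of -0.01 and -0.21.

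Genotypes were compared within each age, to see whether the members differed when the receptor subunit was absent. At P3 0 of 9 members passed in limma, as did 0% of all probe sets tested, and at P7 0 of 9 passed in limma, against 0.0111%. At P60 0 of 9 passed in limma and 0% of all. At an unadjusted p under 0.05 the count of members was also 0 at each of these 3 ages. The share of all probe sets tested was then 1.75% at P3, 1.48% at P7 and 6.1% at P60. The widest of these differences was that of Col10a1 at P7, -1.66 ± 1.76 (SE, adjusted p = 1). The study, in contrast, lists this Col10a1 probe set as lower in α9-/- at P7, and it lists calls at P3 and P60 as well. The reason for this disagreement was not tested.

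At P13 1 of 9 members was higher in α9-/-, where 10.1% of all probe sets tested were higher, so the share of members was close to the background. This was Col11a2, with deposited signals of 9.48, 8.77 and 10.88 in wild type and of 12.82, 12.55 and 11.99 in α9-/-, which did not overlap. All α9-/- pools lay above all wild type pools for 3 of 9 members at P13 (Col9a2, Col9a3 and Col11a2), as they did for 11.3% of all probe sets. Col11a2 was higher in α9-/- by 2.75 ± 0.53 (SE, adjusted p = 0.0219), about 6.71-fold. This comparison shares the 3 wild type arrays of P13 with the step from P7 described above. Col9a2 had 0.85 ± 0.25 (SE, adjusted p = 0.0565), Col2a1 0.64 ± 0.33 (SE, adjusted p = 0.191) and Col9a3 0.60 ± 0.28 (SE, adjusted p = 0.157). Matn1 had -0.06 and Acan -0.25, neither passing. The median over all probe sets was -0.16 at this age.

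The probe sets of Col9a1 gave different answers at P13. The one of higher mean signal was at 13.16, 13.37 and 12.86 in wild type and 13.27, 13.36 and 13.45 in α9-/-, a difference of 0.23 ± 0.24 (SE, adjusted p = 0.503). The other was at 9.05, 9.58 and 10.75 in wild type and 11.63, 11.91 and 11.78 in α9-/-, without overlap, and was higher in α9-/- by 1.98 ± 0.43 (SE, adjusted p = 0.0292). RefSeq gives Col9a1 the 2 starts named above, and neither probe set was placed on a transcript here. At P3 this second probe set was at 8.74 in wild type pool 1 and 10.41 in α9-/- pool 2, the arrays of high Gapdh difference, and between 12.35 and 12.91 in the other 4 pools.

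The P13 differences of some members changed when arrays of high Gapdh difference were left out. Leaving out wild type pools 1 and 2 leaves 1 wild type array, assumed to vary like the α9-/- arrays. That array, pool 3, itself had a Gapdh difference of 2.43, against -0.15 to 0.34 on the α9-/- arrays, so the genotypes still differed in it. Col11a2 had 1.58 in this smaller fit and the second Col9a1 probe set 1.02. Col9a2 then had 0.66 in place of 0.85 and Col2a1 0.03 in place of 0.64, while the first Col9a1 probe set had 0.50 in place of 0.23. Matn1 went from -0.06 to 0.60 and Col10a1 from 0.28 to -0.75, none of them passing. With 1 array left out, the Col11a2 call was lost without wild type pool 2 (adjusted p = 0.0741) and without α9-/- pool 1 (0.0545), 2 (0.0786) or 3 (0.0766). On arrays of high Gapdh difference Col11a2 stood against the other arrays of its group at -0.99 for P3 wild type, -1.68 for P3 α9-/-, -1.75 for P13 wild type and -2.66 for P60 wild type. At the probe set of highest mean Col2a1, Col9a2, Col9a3, Col10a1 and Col11a1 were also lower on these arrays in each group, while other members were mixed. Acan had 1.80 for P3 wild type, -0.48 for P3 α9-/-, 0.02 for P13 wild type and 0.59 for P60 wild type. For the same groups in this order Matn1 had 0.69, -2.51, 0.99 and 1.27, and Col9a1 -0.78, -0.09, 0.40 and 1.05. Of markers of other tissue at P13, 1 of 8 for skeletal muscle was lower in α9-/-, where 4.03% of all probe sets tested were lower. For cerebellum 0 of 8 and for osteoblasts 0 of 7 passed in limma. At an unadjusted p under 0.05 these 2 counts were 2 and 2, against 37.3% of all probe sets tested. The mean log2 signal of 8 skeletal muscle markers ranged from 7.53 to 10.66 in wild type and from 7.75 to 7.91 in α9-/-, and that of 8 cerebellar markers from 6.91 to 9.90 and from 6.72 to 8.48. That of 7 osteoblast markers ranged from 12.09 to 12.44 and from 11.77 to 12.47. The part of these in the P13 difference was not tested.

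**Figure D3:**
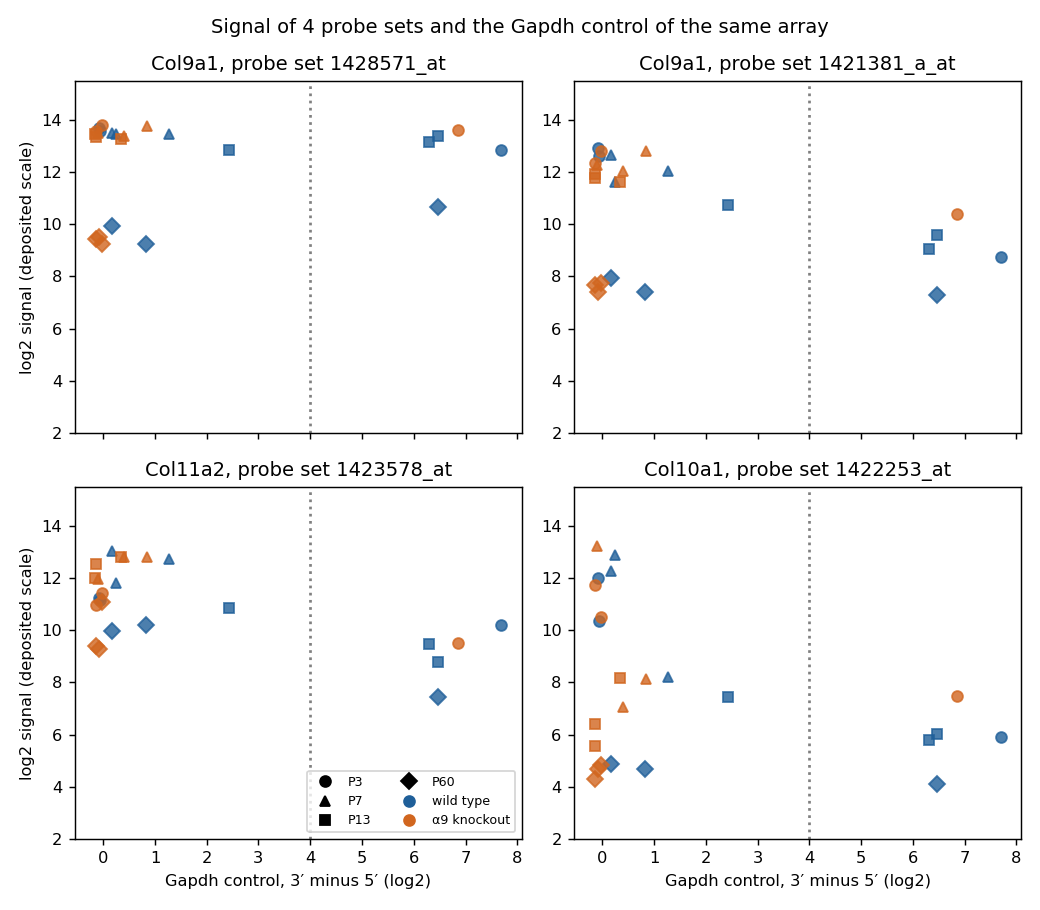
Deposited log2 signal of 4 probe sets (vertical axis) against the 3′ minus 5′ log2 difference of the Gapdh control on the same array (horizontal axis), 1 point per array, colour for genotype and shape for age, with a dotted line at 4. The 5 arrays to the right of the line are P3 wild type pool 1, P3 α9-/- pool 2, P13 wild type pools 1 and 2 and P60 wild type pool 1, and Col11a2 is lower on them than on the other arrays of the same group on average.

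Other genes of cartilage and of collagen assembly were read from lists chosen by function, with 1 probe set per gene, as log2 differences of P60 against P3. Of all probe sets 6.11% were lower and 7.59% higher in wild type, and 8.01% lower and 6.28% higher in α9-/-. Enzymes and chaperones that fold, modify and crosslink collagen were mostly lower. Of 14 such genes 12 were lower in wild type and 10 in α9-/-, with medians of -1.63 and -1.21. Serpinh1, the collagen chaperone HSP47, had -2.97 ± 0.53 (SE, adjusted p = 0.000579) in wild type and -2.11 (adjusted p = 0.00996) in α9-/-. P3h1, a prolyl 3-hydroxylase, had -2.24 in wild type and -2.20 in α9-/-, and Lox, which crosslinks fibrils, -2.19 in wild type and -2.85 in α9-/-. P4hb, a subunit of prolyl 4-hydroxylase, passed in wild type (-1.99) and had -1.15 (adjusted p = 0.124) in α9-/-.

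Of 12 growth plate and hypertrophy genes 8 were lower in wild type and 6 in α9-/-, with medians of -1.496 and -1.21. Panx3, a channel protein of hypertrophic chondrocytes and osteoblasts, had -6.31 ± 0.47 (SE, adjusted p = 2.57e-08) in wild type and -5.82 in α9-/-. Mmp13, a collagenase, had -2.54 in wild type and -2.09 in α9-/-, and Pth1r, the receptor of parathyroid hormone-related protein, -2.401 in wild type and -1.83 in α9-/-. Alpl, the phosphatase of mineralizing matrix, passed in wild type (-1.96) and had -1.09 (adjusted p = 0.215) in α9-/-.

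The SOX factors of chondrocytes, Sox5, Sox6 and Sox9, gave 0 of 3 calls in each genotype in limma. At an unadjusted p under 0.05 there were 0 in wild type and 1, Sox5, in α9-/-, against 25.7% and 26.7% of all probe sets. Sox9, the main activator of Col2a1, had -0.03 in wild type and -0.27 in α9-/-. Other cartilage matrix genes were mixed, with 3 lower and 2 higher of 16 in wild type and 5 lower and 2 higher in α9-/-. Matn4, a matrilin, had -3.94 in wild type and -2.89 in α9-/-, and Snorc, a chondrocyte membrane proteoglycan, -3.22 in wild type and -3.84 in α9-/-. In the other direction Ucma, a small protein of cartilage matrix, had 3.98 in wild type and 2.98 in α9-/-, and Prg4, the lubricin of joint surfaces, 3.93 in wild type and 3.70 in α9-/-. Of 9 genes of sulfation and proteoglycan synthesis 1 was lower in wild type and 2 in α9-/-, with Chsy1, a chondroitin synthase, at -2.05 in wild type and -2.29 in α9-/-. Of 9 matrix proteases and inhibitors there were 4 lower and 1 higher in wild type and 5 lower and 1 higher in α9-/-. The metalloprotease Mmp14 had -2.28 in wild type and -1.89 in α9-/-, and Mmp2 had -1.65 in wild type and -1.69 in α9-/-. The inhibitor Timp1 had -1.82 in wild type and -2.02 in α9-/-, and Mmp3, another metalloprotease, was higher at P60, with 2.58 in wild type and 1.79 in α9-/-.

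Markers of bone cells and of other cochlear cells moved over the same interval. All 6 osteoclast markers were lower in each genotype. Mmp9 had -3.66 in wild type and -3.54 in α9-/-, Ctsk -3.17 in wild type and -2.54 in α9-/-, Acp5 -2.57 in wild type and -2.04 in α9-/- and Oscar -2.54 in wild type and -2.52 in α9-/-. Of 7 osteoblast markers 4 were lower in wild type and 4 in α9-/-. Of these Col1a1 had -1.87 in wild type and -0.97 in α9-/-, Sp7 -1.66 in wild type and -1.18 in α9-/-, Col1a2 -1.11 in wild type and -0.70 in α9-/- and Phex -0.87 in wild type and -1.10 in α9-/-. Their mean log2 signal on the common scale was 11.32 to 11.53 in wild type at P3, 11.96 to 12.22 at P13 and 10.38 to 10.53 at P60. In the tectorial membrane list 2 of 4 genes were lower in each genotype, with Tectb at -4.96 in wild type and -5.32 in α9-/- and Tecta at -3.77 in wild type and -3.79 in α9-/-.

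Among 5 fibrocyte markers Coch had 4.05 in wild type and 3.84 in α9-/- and Otos 4.02 in wild type and 4.20 in α9-/-, both higher at P60, and Tbx18 was lower, with -0.76 in wild type and -1.501 in α9-/-. Of 7 hair cell markers Atoh1 was lower, with -1.10 in wild type and -1.48 in α9-/-. Gfi1 passed as higher in wild type (0.84, adjusted p = 0.0496) and had 0.79 (adjusted p = 0.0647) in α9-/-. The methods say that cerebellar fragments were removed in dissection. Over all probe sets 7.59% were higher at P60 in wild type and 6.28% in α9-/-. Of 8 cerebellar markers 4 were higher in wild type and 7 in α9-/-, with Gabra6 at 5.55 in wild type and 7.25 in α9-/-, Cbln3 at 4.20 in wild type and 6.47 in α9-/-, Pcp2 at 3.69 in wild type and 4.38 in α9-/- and Pvalb at 1.79 in wild type and 2.55 in α9-/-. Of 8 skeletal muscle markers 2 were higher in each genotype, Myh4 with 6.44 in wild type and 6.93 in α9-/- and Myh1 with 3.51 in wild type and 3.21 in α9-/-. The mean log2 signal of the muscle markers in wild type was 7.46 to 10.11 at P3 and 9.41 to 12.47 at P60, and in α9-/- 7.89 to 10.44 and 10.33 to 12.20. For the cerebellar markers it was 7.19 to 7.54 and 8.40 to 11.19 in wild type, and 7.18 to 8.08 and 10.18 to 12.20 in α9-/-. The part of this tissue in the fall of the members was not tested.

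**Figure D4:**
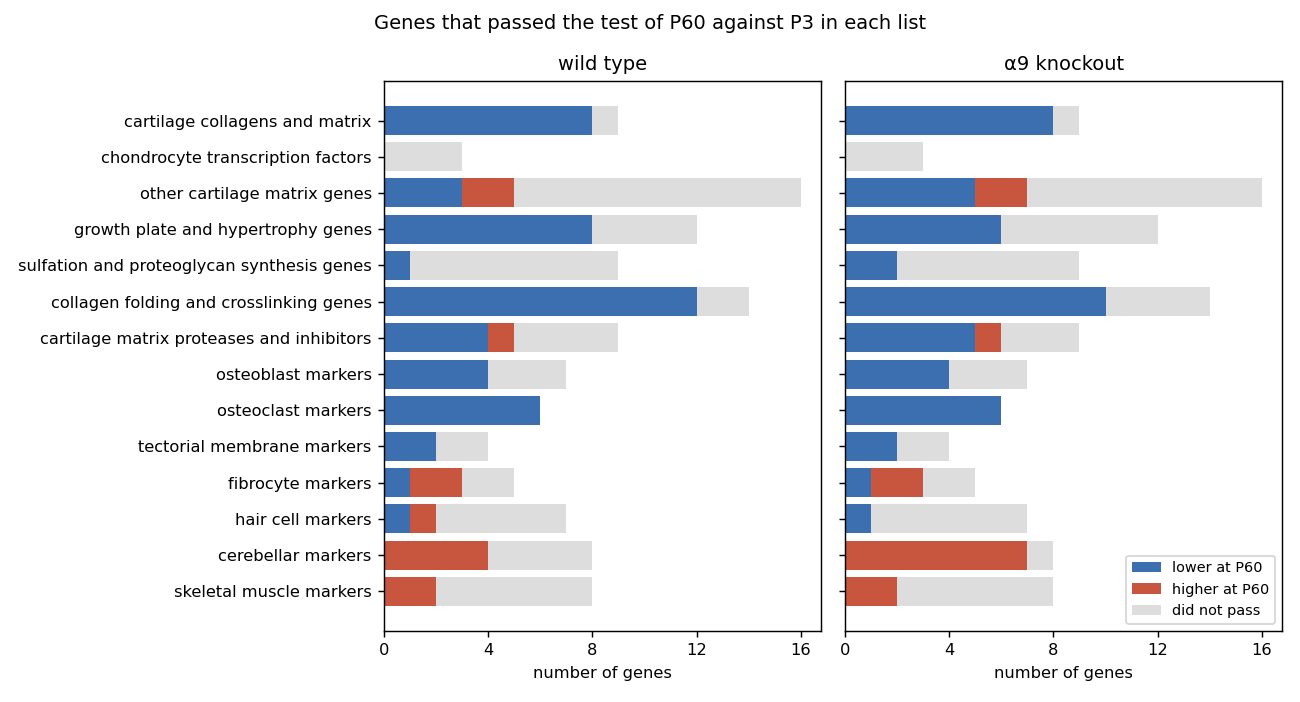
Number of genes (horizontal axis) in each list (vertical axis) that passed as lower or higher at P60 against P3 or did not pass, by colour, for wild type and α9-/-. Of the 9 cartilage genes 8 are lower in each panel, all 6 osteoclast markers are lower, and none of the 3 chondrocyte transcription factors passed.

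The members followed each other to unequal degrees over the 24 arrays, which share age and array effects, so this is a description. Pearson's r of a gene with the mean standardized profile of the other 8 was 0.955 for Col9a3, 0.938 for Col9a2, 0.928 for Col2a1, 0.889 for Col9a1 and 0.824 for Col11a1. It was 0.796 for Col10a1, 0.763 for Acan, 0.681 for Matn1 and 0.614 for Col11a2. Among 18185 other genes, the 10 whose profile was most like the mean of the members were Tspan6 (r = 0.966), Pdgfrl (0.965), Grb10 (0.961), Gpx7 (0.96), P3h1 (0.959), Ece2 (0.955), Cdk4 (0.953), Ext1 (0.953), Sh3pxd2b (0.953) and D11Wsu47e (0.951). P3h1 is also one of the collagen folding genes above.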

How the data were processed

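Log2 signals of 45101 probe sets on 24 arrays were used as deposited. Per the methods, the authors made them in R: an RMA background correction came first, quantile normalization followed, and AffyPLM reduced each probe set to 1 value by Tukey biweight. The submitters' processing notes name RMA and limma. Array quantiles were alike within an age only. Genotypes were therefore compared per age on these log2 values, with limma 3.58.1 in R 4.3.3, keeping the 40% that varied most. Ages and interactions were fitted over 8 groups after quantile normalization of all arrays. A difference passed at a Benjamini-Hochberg adjusted p under 0.05. The study's further threshold, a log2 difference of 1.5, was not needed for passing, and where signal is low a log2 difference understates change. SEs and p-values rest on the spread between pools within groups. For ages and interactions this spread was estimated once over all 8 groups. A probe set therefore has the same SE in every step between ages, also where its groups spread unequally.

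The members and gene lists were chosen with earlier results of these data known. Named genes were all members at each probe set, up to 4 genes of a list with the largest wild type difference between P60 and P3 among those that passed, and the 10 genes most like the members. Levels given beside a result and single genes outside this rule (Sox5 and Sox9) were chosen after their values were seen. The lists were chondrocyte transcription factors, other cartilage matrix, growth plate and hypertrophy, sulfation and proteoglycan synthesis, collagen folding and crosslinking, proteases and inhibitors, and markers of osteoblasts, osteoclasts, tectorial membrane, fibrocytes, hair cells, cerebellum and skeletal muscle. The fits were tested on simulated data. Alternatives covered the filter, the normalization, array weights, a replicate block, the probe set, the groups fitted, arrays of low Gapdh 5′ signal and leaving out each array. Presence of poly-A controls, a mean signal of at least 8, as a block was added after seeing the data. Python 3.11.15 with pandas 2.3.3 and matplotlib 3.10.9 drew figures and searched motifs. Listed genes with no matching symbol were not analysed here.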

Additional observations from a re-analysis of the deposited data

How the results depend on the processing

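No call changed direction under the alternatives. Among differences that did not pass, some turned when arrays of low Gapdh 5′ signal were left out, such as Matn1 (-0.06 to 0.60) and Col10a1 (0.28 to -0.75) between genotypes at P13 and Col11a2 (0.71 to -0.17) at P60. Counts of members stayed within 1.5 times the reported count in 87 of 108 cases with 1 array left out and in 99 of 114 other cases. The counts for P60 against P13 and P60 against P3 did so under every alternative in both genotypes. At P13 between genotypes the count of 1 became 3 with array weights, 0 without arrays of low Gapdh 5′ signal, 2 with the probe set of highest variance and 2 with poly-A control presence as a block, and ranged from 0 to 3 when 1 array was left out. For wild type P7 against P3 the count of 1 became 2 with array weights and 0 with only the groups compared, and ranged from 0 to 1 when 1 array was left out. For wild type P13 against P7 the count of 7 became 1 without arrays of low Gapdh 5′ signal, and ranged from 4 to 6 when 1 array was left out. For α9-/- P7 against P3 the count of 0 became 1 on the deposited scale, 1 with arrays centred on their medians and 2 with array weights, and ranged from 0 to 1 when 1 array was left out. There Col11a1 passed without P3 α9-/- pool 1, and Matn1 passed as lower without P7 α9-/- pool 2. For α9-/- P13 against P7 the count of 1 became 0 on the deposited scale, 2 with array weights and 0 with only the groups compared, and was 0 without any 1 array. With array weights the interaction passed for 1 member from P7 to P13 (Col11a2) and for 4 from P13 to P60 (Col2a1, Col9a2, Col9a3 and Col11a2). The cause of these changes was not tested, except that leaving out arrays leaves fewer arrays in the fit. On the deposited scale the median of all probe sets shifted by 0.27 from P7 to P13 and by -0.36 from P13 to P60 in wild type, against 0.04 and -0.06 on the common scale.

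The main fits did not pair arrays by replicate number. Correlations of same-numbered arrays were -0.489, -0.622 and 0.455 for P3 and 0.121, 0.586 and -0.0508 for P7. They were 0.35, 0.145 and 0.0333 for P13 and 0.151, -0.0727 and 0.461 for P60. No age had all 3 above 0.1. Arrays of different numbers had -0.651 to 0.746 for P3, -0.42 to 0.399 for P7, -0.334 to 0.248 for P13 and -0.467 to 0.371 for P60. What pools of the same number share was not tested, and at P7 and P13 poly-A control signal above or below 8 followed the number. With a replicate block the P13 genotype count was 1 and the wild type count for P13 against P7 was 7, and the α9-/- count for P60 against P13 was 6, with Col11a2 added. No other count of members moved. The number of arrays per group, 3, limits what can be seen for Col10a1 and Matn1, whose signal at P60 lay at percentiles 14.9 to 22 of all probe sets.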
